A study of Arabidopsis thaliana with 28 samples.

Results

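The elongation zone of Arabidopsis thaliana root tips was compared with the meristematic zone of the same root tips in roots kept on control medium. All 16 arrays of control roots were used, 8 of each zone, out of the 28 arrays of the series. The other 12 arrays came from roots on medium with 1 mM hydrogen peroxide (H2O2). They were fitted together with the control arrays, so they share in the spread behind each SE and adjusted p of the zone changes. They also gave the zone difference on H2O2 at the end. The seedlings were of the accession Columbia-0, carried no transgene named in the labels, and grew upright on MS medium with sucrose. Their age is labelled as 5 days after germination, whereas the treatment protocol says 5 days after imbibition. Untreated control roots on MS medium were taken at 0, 1, 3 and 6 h, and 2 biological replicates of 30 roots each were collected per zone and time. A razor blade was used to divide each root tip under a microscope, so the boundary between the zones was set by hand. Every section holds all tissues at its position, from root cap or epidermis to vascular tissue. Fewer cells of a type and less RNA per cell cannot be told apart in such sections. The RNA was amplified in 2 rounds before labelling, and the cRNA was hybridised to ATH1 arrays of oligonucleotide probes.

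The root meristem is a pool of small, dense cells that pass through the division cycle and rebuild their contents before each division. Cells that leave it stop dividing and lengthen along the root axis, which they do by loosening and rebuilding the primary wall while the vacuole takes up water and fills most of the cell. The move from one zone to the other is set by opposing transcription factors and hormones, among which auxin and cytokinin are the best known.

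Signals are linear array intensities, and each is given as the lowest, the median and the highest of the 8 arrays of a zone. Changes are differences of log2(signal + 16) between the zones, elongation minus meristematic, averaged over the 4 times and given ± SE. The addition of 16 understates the change of dim genes. A gene was called higher or lower at an adjusted p under 0.05 in limma's moderated test, adjusted by Benjamini-Hochberg over 22746 probe sets. Across these, 58.3% were called in all, and 26% were called higher and 32.3% lower in the elongation zone. Of the 13286 genes with a probe set of their own, 24.2% were higher and 31.8% lower, with a median change of -0.024. In 13% of the genes all 8 elongation arrays lay above all 8 meristematic arrays, and in 20.3% all 8 lay below. Members of each gene group are read against these shares.

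Replicate arrays had Pearson correlations from 0.9649 to 0.9867, and the first principal component of the control arrays, with 76.6% of the variance, separated the zones. On the second component (4.74% of the variance) replicate 2 scored below replicate 1 in both zones at all 4 times. In the elongation zone replicate 2 also lay further from the meristematic arrays on the first component at all 4 times. What set the replicates apart was not tested. The second elongation replicate of 1 h had the lowest score of its zone on the second component, and so did the meristematic array of that number and time. Without both arrays 5759 probe sets were called higher and 7098 lower, and in no gene list did the number of higher or the number of lower members change by more than 2. Of the genes named here, GME, SEC15A, AT4G31910 and GLR3.6 then no longer passed limma's test (adjusted p = 0.0716, 0.0772, 0.0535 and 0.0516). The deposited values were scaled to 1 trimmed mean, and the median signal was lower in the elongation zone (55.7 ± 1.96, SD, n = 8) than in the meristematic zone (71.0 ± 2.62, n = 8, exact two-sided permutation p = 0.000155, adjusted 0.00062 over 4 measures). Shifting all arrays to the same median moved the median change of all probe sets from -0.019 to 0.26, and the calls from 5910 higher and 7349 lower to 10595 higher and 5559 lower. Directions of the gene groups below are relative to the deposited scaling, and a printed median that changes sign with that shift is marked as such. Among the 74 lists, the shift moved the number of members called higher by over 1.5 times in 34 and the number called lower in 21. The ratio of 3′ to 5′ probe signal of GAPDH, a sign of RNA quality, also differed between the zones. Its log2 value was 0.434 ± 0.184 in the meristematic zone and 0.0338 ± 0.22 in the elongation zone (SD, n = 8 each, exact two-sided permutation p = 0.00124, adjusted 0.00248). The actin ratio was lower by less than its spread (4.36 ± 0.389 and 4.04 ± 0.179, adjusted p = 0.0695 by the exact permutation test), and the percent of probe sets under 16 was 28.2 ± 1.88 and 27.8 ± 1.13 (adjusted p = 0.607). The part of RNA quality in the results was not tested.

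The labelled tissues were set against cell type markers. Of 49 markers, 7 had a probe set of their own in the annotation used, and the others were not analysed here. BBM, a transcription factor of the stem cell niche, had signals of 119.7, 159 and 211 in the meristematic zone and 1.96, 2.70 and 7.69 in the elongation zone. AGL42, which marks the quiescent centre, was lower in the elongation zone by a smaller margin (-0.47 ± 0.13), with arrays that overlapped. The listed root cap marker AT1G65570 had signals of 338, 641 and 796 in the meristematic zone and 3.09, 10.1 and 31.2 in the elongation zone, with no overlap. Signals of EXPA7, an expansin of root hair cells, were 1.16, 10.8 and 18.2 in the meristematic zone and 23.6, 40.7 and 81.7 in the elongation zone, dim in both zones, and EXPA18 of the same cells rose from a median of 20.7 to 45.6. GSO1, a receptor kinase that shapes the endodermal barrier, rose from a median of 20.7 to 219. The listed cortex marker AT1G62500 was lower in the elongation zone (-1.55 ± 0.12). No marker of dividing cells, non-hair epidermis, xylem or phloem on that list was among those measured.

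Genes of RNA synthesis and ribosome building were lower together in the elongation zone. Of 95 measured genes of RNA polymerases, ribosome assembly, RNA processing, nuclear transport and translation, 86 were lower in the elongation zone, 0 were higher and 9 did not pass. Their median change was -1.14, and 75 had all 8 elongation arrays below all 8 meristematic arrays. At the 4 times the median ran from -1.24 to -1.05. With arrays shifted to the same median 81 were lower and 5 higher.

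All 4 measured subunits of RNA polymerases I and III, which make ribosomal and transfer RNA, were lower. NRPA2, the second-largest subunit of RNA polymerase I, had signals of 862, 1017 and 1272 in the meristematic zone and 55.7, 157 and 294 in the elongation zone. NRPC2, its counterpart in RNA polymerase III, had signals of 576, 661 and 835 in the meristematic zone and 64.5, 119 and 256 in the elongation zone. In both genes the zones did not overlap, and the changes were -2.79 ± 0.21 (adjusted p = 3.09e-10) and -2.33 ± 0.13 (adjusted p = 2.11e-12). The largest subunits followed, NRPA1 at -2.67 ± 0.18 and NRPC1 at -2.13 ± 0.12. Of 16 genes of RNA polymerase II, its plant relatives IV and V and their partners, 13 were lower, with a median of -0.87. IYO, a partner of RNA polymerase II, fell from a median of 133 to 18.0, and the shared subunits NRPB6A and NRPB12 fell by 2.08 and 1.68 on the log2 scale.

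All 16 genes of ribosome assembly were lower, each with arrays that did not overlap, and their median was -2.30. AT5G14520, listed with the synonym PES for the pescadillo protein of the large subunit's maturation, had signals of 5409, 6028 and 7447 in the meristematic zone and 456, 897 and 1847 in the elongation zone. AT5G52820, with the synonym NLE, a WD-repeat protein of the same pathway, fell from a median of 1664 to 177 (-3.13 ± 0.16). YAO, a nucleolar WD-repeat protein, fell by 2.92 and AT3G55510, with the synonym REBELOTE, by 2.78. The least changed of the 16 was PGY1, which codes for a ribosomal protein of the large subunit. Its signals were 6926, 8123 and 9158 in the meristematic zone and 3489.7, 4977 and 5539.7 in the elongation zone, a change of -0.76 ± 0.072. The 2 smallest changes in size belonged to the ribosomal proteins PGY1 and AT1G77750 (-0.79 ± 0.092).

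Among 42 genes of splicing, RNA decay and RNA export 39 were lower and none was higher, with a median of -1.02. The lead gene was AT1G13030, with the synonym COILIN, the scaffold of Cajal bodies, with signals of 317, 352 and 425 in the meristematic zone and 24.3, 41.6 and 94.7 in the elongation zone. TRZ3, an enzyme that trims transfer RNA ends, fell by 2.23, the RNA helicase NIH by 1.88 and the RNA-binding protein AtRZ-1b by 1.82. In nuclear transport 5 of 6 genes were lower. The exportin XPO1B, which carries proteins and ribosomal subunits out of the nucleus, fell from a median of 424 to 86.3 and the pore protein NUP155 from 741 to 302. Of 11 genes of translation, methionine removal and stalled ribosomes 9 were lower. They were led by enzymes that process the first residue of new proteins. These were the methionine aminopeptidase MAP1C (-2.72 ± 0.15) and the peptide deformylases PDF1A (-2.15 ± 0.11) and PDF1B (-2.06 ± 0.12). The compartment in which these enzymes act was not examined, so their change is not read as one of cytosolic translation. ALATS, the transfer RNA ligase for alanine, fell by 1.26, whereas the initiation factor EIF4A-2 (-0.22 ± 0.10) did not pass.

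**Figure D1:**
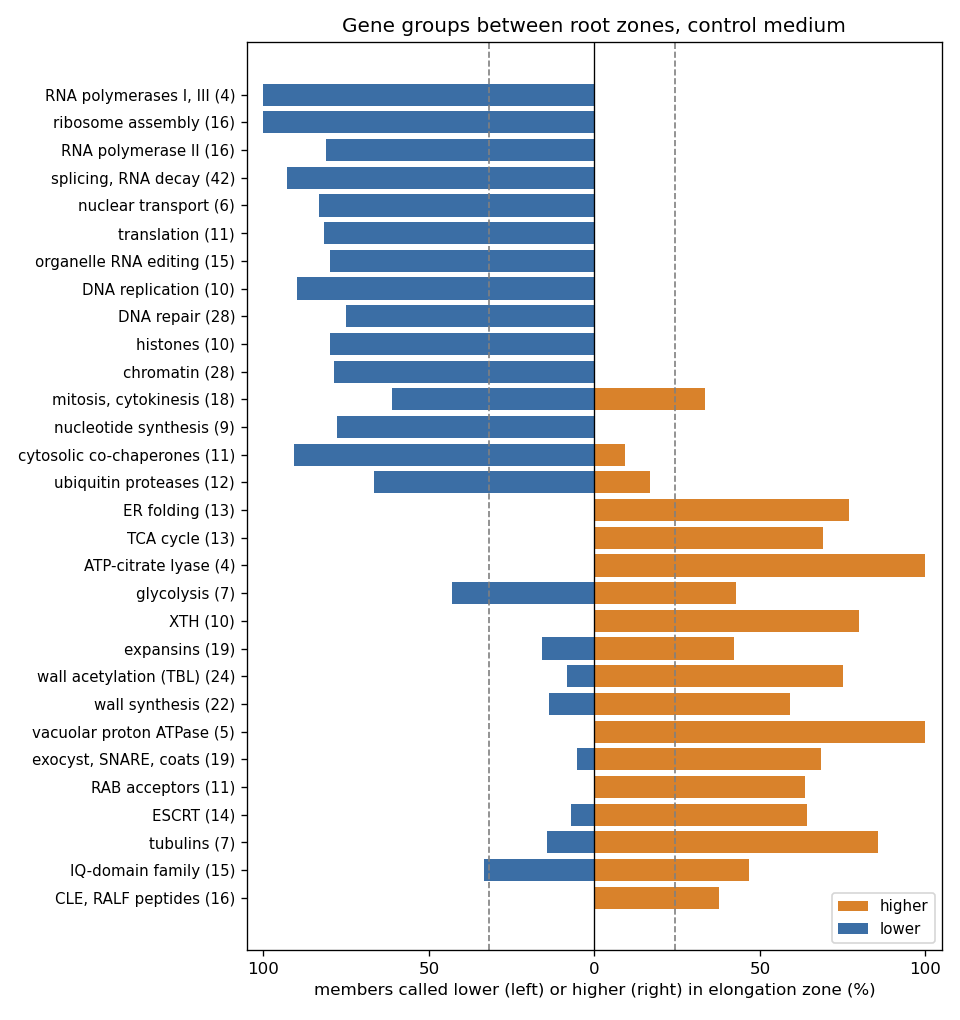
Share of the measured members of 30 gene groups called higher (right, orange) or lower (left, blue) in the elongation zone of control roots, in percent, with the number of members in brackets. Grey lines mark the shares over all 13286 genes, 24.2% higher and 31.8% lower. The groups of RNA and ribosome synthesis reach to the left and those of the vacuolar proton pump, ATP-citrate lyase and xyloglucan enzymes to the right.

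Genes that copy, pack and mend DNA were lower as well. Of 76 genes of DNA replication, repair, histones and chromatin, 60 were lower in the elongation zone, 0 were higher and 16 did not pass, at a median of -0.78. With arrays shifted to the same median 51 were lower and 5 higher. In DNA replication 9 of 10 genes were lower. TOPII, the topoisomerase that untangles replicated chromosomes, had signals of 623, 882 and 999.8 in the meristematic zone and 72.6, 84.1 and 174 in the elongation zone (-2.87 ± 0.12, adjusted p = 3.75e-14). PRL, a subunit of the replicative helicase, had signals of 626, 817 and 969 in the meristematic zone and 149, 236 and 411 in the elongation zone. Neither gene had an elongation array as high as its lowest meristematic array. The polymerase subunits POLD3 (-1.59 ± 0.093), POLA3 (-1.36 ± 0.11) and ICU2 (-1.09 ± 0.12) and the helicase partner PSF2 (-1.40 ± 0.11) were lower by less. FBL17, an F-box protein that removes inhibitors of the cell cycle, changed by only -0.33 ± 0.083.

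Histone genes changed by -1.31 to 0.20. HTB1, a histone H2B, had signals of 1451, 1942 and 2443 in the meristematic zone and 551, 759.6 and 1013 in the elongation zone. HTB11, another H2B, overlapped between the zones, with signals of 1755, 2454 and 2669 in the meristematic zone and 1494, 1919.8 and 2187 in the elongation zone. Of 10 histone and chaperone genes 8 were lower, among them the centromeric histone HTR12 (-1.14 ± 0.12) and the chaperones SGA2 (-1.18 ± 0.076) and ASF1B (-1.16 ± 0.11). The 2 that did not pass, HIS1-3 and MGH3, were dim in both zones. Of 28 chromatin genes 22 were lower. 3xHMG-box2, which coats mitotic chromosomes, had signals of 1020.3, 1121 and 1369.5 in the meristematic zone and 66.8, 103 and 252 in the elongation zone. Its relative 3xHMG-box1 fell by 2.80, the remodeller CHR24 by 1.80 and BSH, a core subunit of SWI/SNF remodelling complexes, by 1.62.

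In DNA repair 21 of 28 genes were lower and none was higher, but 12 of the list had mean signals under 50 in both zones. The uracil glycosylase UNG fell from a median of 92.3 to 12.8, the helicase RECQ4A from 93.2 to 24.1 and its partner topoisomerase TOP3A from 189 to 55.3. Beside it stood ATMND1, known from meiotic recombination, at -1.65 ± 0.13.

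Mitosis and cytokinesis did not move as one. Of 18 genes 11 were lower and 6 higher. Spindle checkpoint and kinase genes were lower, led by BUBR1 (-2.68 ± 0.21), the Aurora kinase AUR2 (-2.62 ± 0.16), Haspin (-2.14 ± 0.10), a kinase of histone H3, and BUB3.1 (-2.12 ± 0.16). BUBR1 had signals of 125, 189 and 268 in the meristematic zone and 2.95, 15.1 and 51.0 in the elongation zone. On the other side stood proteins of microtubule order and of membrane fusion, some of which also act outside division. The microtubule-bundling protein ATMAP65-6 had signals of 53.2, 80.2 and 96.2 in the meristematic zone and 154, 267 and 437 in the elongation zone (1.63 ± 0.14). TON1B, which orders the cortical microtubule array and the preprophase band, rose by 0.88, KINESIN-13A by 0.82 and KEU, a regulator of membrane fusion at the cell plate, by 0.58. The KEU arrays of the zones overlapped.

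**Figure D2:**
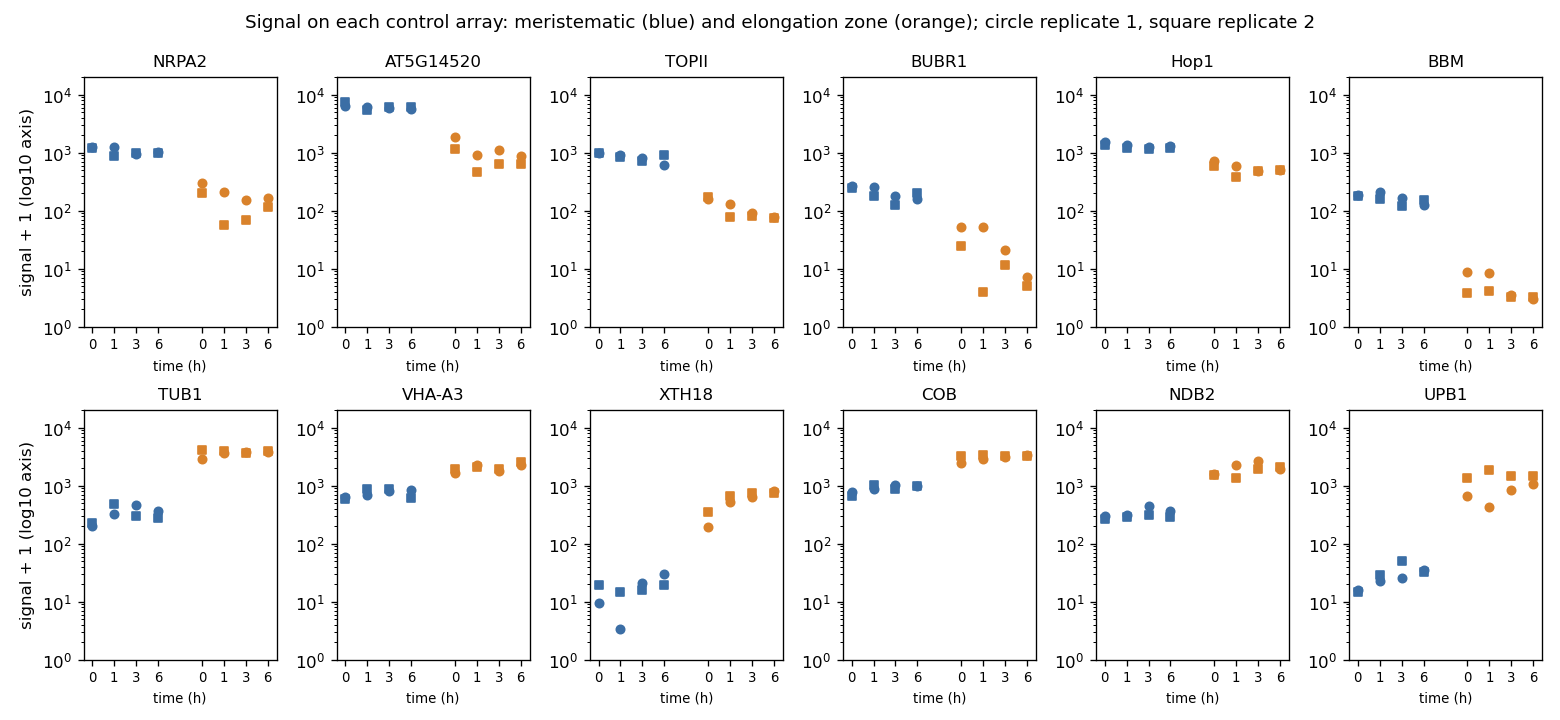
Signal of 12 genes on each of the 16 control arrays, on a log10 axis of signal + 1, with meristematic arrays in blue and elongation arrays in orange and the 4 times side by side. In the 6 upper panels every elongation array lies below every meristematic array, and in the 6 lower panels every elongation array lies above.

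Protein folding divided by compartment. Of 11 cytosolic co-chaperones of HSP70 and HSP90, 10 were lower, with a median of -1.30. Of 13 genes of folding and quality control in the endoplasmic reticulum (ER), 10 were higher and none was lower, with a median of 0.40. Hop1, which joins HSP70 to HSP90, had signals of 1155, 1285 and 1513 in the meristematic zone and 372, 494 and 705 in the elongation zone. Its relatives Hop2 and Hop3 fell by 0.71 and 0.62. The HSP70 exchange factors Fes1C and Fes1A fell by 2.07 and 1.71 and the chaperone BOB1 by 1.30. SQN, a cyclophilin, fell by 1.71 by its brightest probe set, whereas its other probe set gave 0.067 ± 0.071. The 1 co-chaperone that rose was AT5G48570, with the synonym FKBP65 (0.57 ± 0.10).

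BZIP60, a transcription factor of the unfolded protein response of the ER, had signals of 184, 215 and 278 in the meristematic zone and 421, 481 and 549 in the elongation zone (1.05 ± 0.088). DER2.1, a protein of the pathway that removes misfolded proteins from the ER, had signals of 192, 223 and 319.7 in the meristematic zone and 394, 489 and 594 in the elongation zone. In both genes the zones did not overlap. ATERDJ3B, an ER partner of HSP70, rose by 0.65 with overlapping arrays. DER1 rose by 0.94, though its second probe set gave -0.065 ± 0.17.

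Enzymes that make nucleotides and those that burn carbon differed in direction. Of 9 genes of nucleotide and folate synthesis 7 were lower and none was higher. PYRB, which opens pyrimidine synthesis, had signals of 794, 1089 and 1486 in the meristematic zone and 134, 268 and 479 in the elongation zone. FOLB2 of folate synthesis fell by 2.12, the uracil salvage enzyme UPP by 1.60 and the AMP deaminase FAC1 by 1.45. ALN, an enzyme of purine breakdown that opens the ring of allantoin, rose from a median of 241 to 653 (1.38 ± 0.16), while the other 3 measured genes of that pathway did not pass.

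Of 13 genes of the tricarboxylic acid (TCA) cycle and pyruvate dehydrogenase 9 were higher and none was lower, with a median of 0.41. IDH-V, a subunit of isocitrate dehydrogenase, had signals of 1409, 1523 and 1835 in the meristematic zone and 2411, 2917 and 3735 in the elongation zone (0.92 ± 0.065). IDH-VI rose by 1.12 and SDH1-2, a subunit of succinate dehydrogenase, by 1.57. SDH2-1 rose by 0.95, and its second probe set, at 0.23 ± 0.10, did not pass. All 4 ATP-citrate lyase genes were higher. This enzyme makes acetyl-CoA in the cytosol for lipid synthesis. ACLB-1 had signals of 1375, 1497 and 1852 in the meristematic zone and 2279, 2838 and 3164 in the elongation zone, ACLA-3 rose by 1.02, ACLA-1 by 0.49 and ACLA-2 by 0.36.

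NDB2, an alternative NADH dehydrogenase on the outer face of the inner mitochondrial membrane, was higher in the elongation zone. Its signals were 262, 307 and 439.5 in the meristematic zone and 1369, 1927 and 2684 in the elongation zone (2.51 ± 0.11, adjusted p = 6.41e-14). Cytochrome c gene CYTC-2 rose from a median of 578 to 1527 and CYTC-1 by 0.21. NDB1 (-0.35 ± 0.094) and the plastid enzyme NDC1 (-0.52 ± 0.089) were lower, so the alternative dehydrogenases lay on both sides. Glycolysis was divided too, with 3 genes higher and 3 lower of 7, and its median of -0.19 became 0.092 when arrays were shifted to the same median. The enolase ENOC (0.81 ± 0.068), TPI (0.55 ± 0.06) and GAPC2 (0.27 ± 0.059) were higher, and PPDK, which converts between pyruvate and phosphoenolpyruvate, fell from a median of 129 to 21.3.

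**Figure D3:**
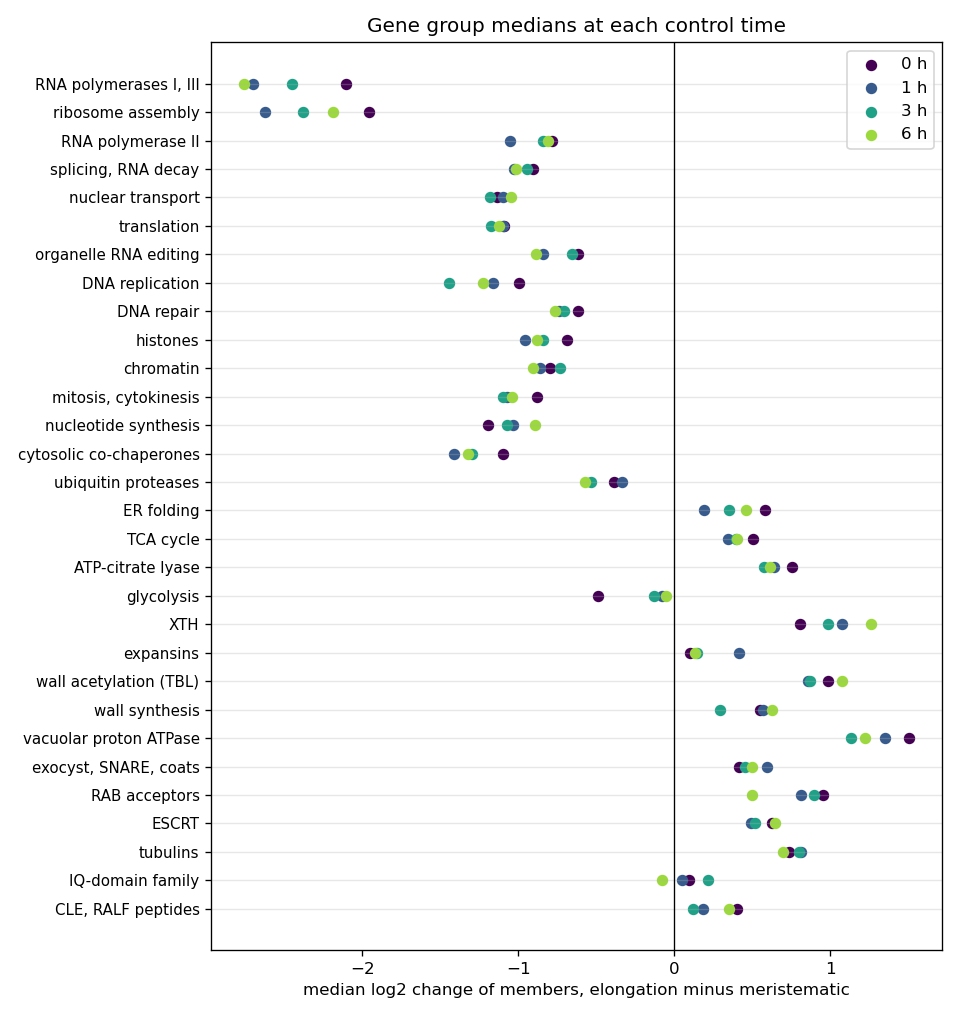
Median log2 change, elongation minus meristematic, of 30 gene groups at 0, 1, 3 and 6 h on control medium, 1 point per time. The IQ-domain family has points on both sides of 0, the groups of RNA and ribosome synthesis stay below 0 at all 4 times, and those of the vacuolar proton pump, the tubulins and wall acetylation stay above 0.

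Families of the cell wall differed in how many members were higher in the elongation zone, and several held members on both sides. Xyloglucan endotransglucosylases/hydrolases (XTH), which cut and rejoin the tethers between cellulose fibres, were higher in 8 of 10 genes, with none lower. XTH18 had signals of 2.33, 16.7 and 28.8 in the meristematic zone and 189, 656 and 792 in the elongation zone. Those of XTH21 were 0.38, 1.01 and 1.42 in the meristematic zone and 213, 460.4 and 566 in the elongation zone. Both genes were dim in the meristematic zone and bright in the elongation zone, with no overlap. XTH19 was present in both zones and rose from a median of 187 to 2421, and XTH16 from 116 to 1631. The other 4 genes that passed changed by less, EXGT-A3 by 0.99, XTH33 by 0.97, XTH32 by 0.52 and XTH20 by 0.48. XTH20 was dim, and its highest signal in the elongation zone was 37.4.

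Expansins, which loosen walls without cutting them, were higher in 8 genes and lower in 3 of 19, and 10 had mean signals under 50 in both zones. EXPB1 had signals of 88.5, 152 and 200.2 in the meristematic zone and 1701, 2597 and 3713 in the elongation zone (3.99 ± 0.11), and EXPA8 rose from a median of 6.25 to 106. Against them, EXPA4 had signals of 249.6, 479.6 and 573 in the meristematic zone and 2.51, 19.2 and 33.3 in the elongation zone (-3.82 ± 0.18). Signals of EXPA15 were 1080.1, 1638 and 2017 in the meristematic zone and 216, 544 and 907 in the elongation zone. In both genes every elongation array lay below every meristematic array, and EXPA20 (-1.56 ± 0.12) was the third expansin to fall. In family GH9 of endoglucanases, which trim glucan chains, 8 of 15 genes were higher and 2 lower. Mean signals of 8 of the 15 were under 50 in both zones. GH9B13 rose from a median of 666 to 2459 and GH9B7 from 1353 to 2679, whereas GH9B6 fell from 113 to 1.65.

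Of 24 members of the TRICHOME BIREFRINGENCE-LIKE family, which add acetyl groups to wall polymers, 18 were higher and 2 lower, with a median of 0.89. TBL37 had signals of 63.2, 129 and 183 in the meristematic zone and 771, 1319.6 and 1951 in the elongation zone (3.24 ± 0.11). TBL21 rose from a median of 5.26 to 361, TBL38 from 8.13 to 199 and TBL19 from 7.06 to 188. The 2 members that fell were TBL36 (-1.28 ± 0.15) and TBL45 (-1.04 ± 0.12).

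Synthesis of wall polymers and glycoproteins was higher in 13 of 22 genes and lower in 3. CSLA03, of the family that makes mannan backbones, had signals of 1.17, 29.2 and 84.5 in the meristematic zone and 460.3, 670.1 and 1275 in the elongation zone. CSLC04, which makes the glucan backbone of xyloglucan, had signals of 144, 283 and 422 in the meristematic zone and 1312, 1566 and 1962 in the elongation zone. COB, a membrane-anchored protein needed for oriented cellulose and for growth along the root axis, had signals of 658, 915 and 1035 in the meristematic zone and 2498, 3216 and 3409 in the elongation zone. All 3 genes had zones that did not overlap, at 4.24 ± 0.17, 2.49 ± 0.12 and 1.79 ± 0.072. USP, which makes UDP-sugars, rose by 1.85. The 3 lower genes, GUT2 (-0.49 ± 0.12), AT1G08280 (-0.38 ± 0.15) and GME (-0.20 ± 0.078), changed by less than 0.5 each. After arrays were shifted to the same median, 16 of the 22 were higher and 0 lower.

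Receptor kinases that sense the wall of the FERONIA type were higher in 2 of 4 genes. THE1 had signals of 188, 212 and 232 in the meristematic zone and 859.9, 1279 and 1352 in the elongation zone, and its relative FER rose from a median of 527 to 1854. ANX1 and ANX2, known from pollen, were dim in both zones and did not pass. In the SKU5-like family of copper oxidase relatives SKU5 rose by 0.96, whereas sks16 had signals of 231, 942 and 1298 in the meristematic zone and 0.72, 14.4 and 130.3 in the elongation zone (-4.48 ± 0.30). The gene sks15 fell by 2.29, with arrays that overlapped. Named class III peroxidases were higher in 2 of 7 cases, Prx37 (1.26 ± 0.20) and AT5G66390, which was dim in both zones. Peroxidase genes without such a name in the annotation used are not in this count, so it gives no share for the whole family. Whether unnamed genes with the widest differences belong to this family was not determined. The 28.6% of the named that were higher lay near the 24.2% over all genes, and 5 had mean signals under 50 in both zones. With arrays shifted to the same median 5 of the named were higher. Of 6 pectin enzymes 2 were higher and 1 lower, and of 16 phenylpropanoid and monolignol enzymes 5 and 2. The shares that were higher, 33.3% and 31.2%, stand beside 24.2% over all genes. All 6 pectin enzymes and 11 of the 16 others had mean signals under 50 in both zones.

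**Figure D4:**
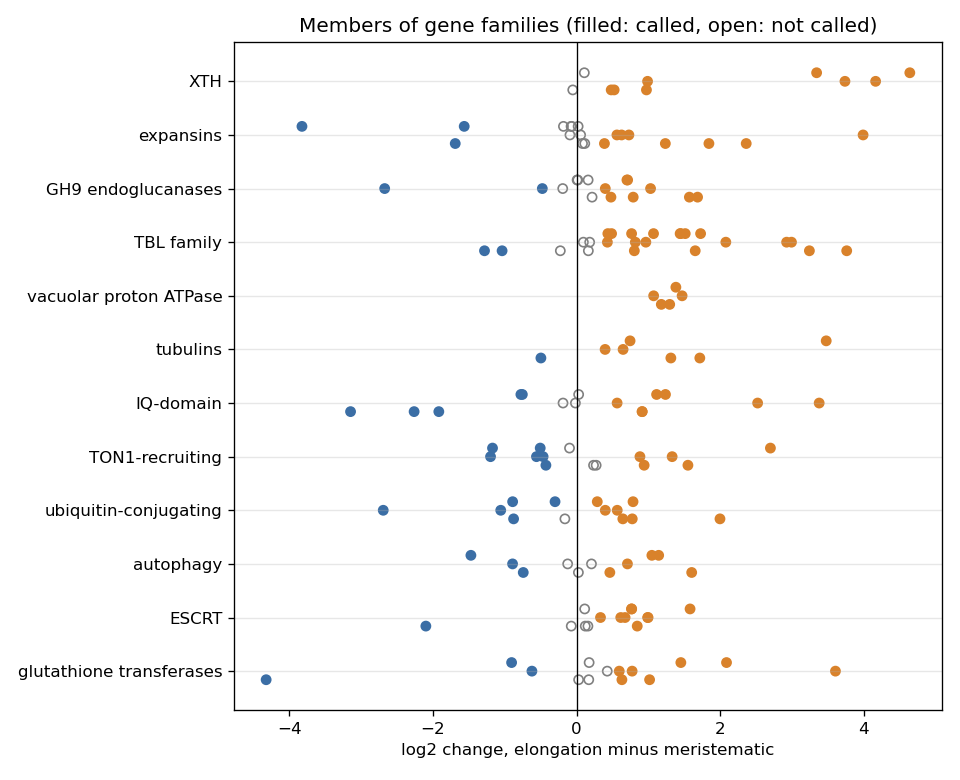
Log2 change, elongation minus meristematic, of each measured member of 12 gene families, 1 point per gene, filled where the gene was called and open where it was not. Called members lie on both sides of 0 in all rows except vacuolar ATPase and XTH, where every called point lies above 0.

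The proton pump of the vacuole was higher in the elongation zone. All 5 measured subunits of the vacuolar proton ATPase, which acidifies the vacuole and the trans-Golgi network, were higher, each with zones that did not overlap, and their median was 1.30. VHA-A3, the membrane subunit of the vacuole, had signals of 598, 756 and 871 in the meristematic zone and 1645, 2035 and 2516 in the elongation zone (1.47 ± 0.08, adjusted p = 2.26e-12). VHA-A2, also of the vacuole, rose by 1.30 and VHA-A1, of the trans-Golgi network, by 1.07. The subunits AT3G58730, with the synonym VHA-D, and AT4G02620, with the synonym VHA-F, rose by 1.38 and 1.18.

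Of 21 sugar transporters 4 were higher and 1 lower, and 16 had mean signals under 50 in both zones. The 19% that were higher lay below the 24.2% over all genes, and with arrays shifted to the same median 15 were higher. The 4 higher genes code for sugar carriers of the vacuolar membrane. TMT1 had signals of 486, 657 and 815 in the meristematic zone and 2264, 2870.2 and 3546 in the elongation zone (2.08 ± 0.08). SWEET16 rose from a median of 57.9 to 415, SWEET17 from 111 to 359 and TMT2 from 45.2 to 72.2. SWEET2, another vacuolar carrier, was lower (-0.72 ± 0.16). In the nitrate and peptide transporter family 6 of 12 genes were higher, led by AT3G21670 (synonym NPF6.4, 2.79 ± 0.15) and AT2G26690 (synonym NPF6.2, 2.19 ± 0.16). The glucosinolate carriers parted, with GTR1 at 1.64 ± 0.12 and GTR2 at -0.74 ± 0.16. OCT5, an organic cation transporter, rose from a median of 87.0 to 751.

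Secretion and vesicle traffic were higher by modest amounts. Of 44 genes of exocyst, SNARE, coat, RAB acceptor and ESCRT proteins 29 were higher and 2 lower, with a median of 0.54. PRA1.B6, of the prenylated RAB acceptors on Golgi and endosome membranes, had signals of 181, 322 and 524 in the meristematic zone and 1735, 2102 and 2422 in the elongation zone (2.62 ± 0.086). AT1G09330, with the synonym ECHIDNA, a protein of secretion from the trans-Golgi network in elongating cells, rose from a median of 911 to 1891. The exocyst subunits SEC5A (0.89 ± 0.067) and SEC15B (0.80 ± 0.059) were higher and SEC15A was slightly lower (-0.24 ± 0.085). Among ESCRT proteins, which sort cargo for the vacuole, SNF7.1 rose by 1.58 while VPS2.2 fell by 2.10.

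Tubulins were higher in 6 of 7 genes. TUB1 had signals of 201, 313 and 491 in the meristematic zone and 2887, 3789 and 4098 in the elongation zone (3.48 ± 0.13, adjusted p = 1.09e-14). TUB5 had signals of 654, 1043 and 1338 in the meristematic zone and 2918, 3385 and 3863 in the elongation zone, and TUB6 rose by 1.31. The exception was TUB7, with signals of 1413, 1719 and 1919 in the meristematic zone and 1035, 1175 and 1494 in the elongation zone and zones that overlapped. SPR1, which keeps cortical microtubules in order during elongation, rose from a median of 1138 to 2623, and its relatives SP1L4 and SP1L3 rose by 1.40 and 0.95.

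Microtubule scaffolds of the IQ-domain and TON1-recruiting families were divided about evenly. Of 15 IQ-domain genes 7 were higher and 5 lower. IQD19 had signals of 19.4, 44.0 and 56.3 in the meristematic zone and 413, 573 and 661 in the elongation zone and IQD16, at the other end, 149.9, 205 and 256 in the meristematic zone and 2.90, 5.65 and 19.8 in the elongation zone. Their changes were 3.38 ± 0.12 and -3.15 ± 0.15. The same family held iqd33 at 2.52 ± 0.12 and IQD26 at -2.26 ± 0.12. In the TON1-recruiting family 5 were higher and 6 lower of 14, from TRM26 (2.70 ± 0.11) to TRM25 (-1.20 ± 0.13).

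Of 27 genes of actin, myosins and actin-binding proteins 11 were higher and 4 lower, and 19 and 3 with arrays shifted to the same median. ACT11 had signals of 132, 174 and 223 in the meristematic zone and 635, 892 and 1118 in the elongation zone. The actin-bundling LIM proteins PLIM2b and WLIM2a rose by 2.43 and 1.75 and NET2D, which links actin to membranes, by 2.21. Myosin XI-I, which moves the nucleus, fell by 1.53 and the class VIII myosin VIIIB by 1.03.

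In protein turnover the ubiquitin-conjugating enzymes held UBC20 and UBC16 at opposite ends. UBC20, of the class that serves the anaphase-promoting complex in mitosis, had signals of 1122, 1374 and 1507 in the meristematic zone and 137, 177 and 311 in the elongation zone, and UBC16 rose from a median of 3.28 to 74.2. Of 13 such enzymes 7 were higher and 5 lower. Ubiquitin-specific proteases were lower in 8 of 12 genes, led by UBP23 (-1.71 ± 0.14), and with arrays shifted to the same median 5 were. In autophagy 5 of 11 genes were higher and 3 lower, with the ATG8 proteins of autophagosome membranes on both sides. ATG8H rose by 1.60, ATG8E by 1.14 and APG8A by 1.05. The second 1 h replicate of the elongation zone had an ATG8E signal of 451, against a median of 36.9 on the others. ATG8G fell by 1.47, ATG8D by 0.89 and ATG8B by 0.74.

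Regulators of growth lay on both sides. UPB1, a basic helix-loop-helix factor known to help set the border between dividing and elongating cells through peroxidases, had signals of 13.5, 26.0 and 49.4 in the meristematic zone and 429.8, 1219 and 1829 in the elongation zone (4.66 ± 0.23, adjusted p = 5.35e-13). BBM stood at the other end (-3.15 ± 0.10). TCP15, a growth regulator, rose from a median of 19.7 to 152, while the phosphatase POL (-1.03 ± 0.10) and the receptor kinase CR4 (-0.98 ± 0.15), both known from the stem cell niche, were lower. The meristem and zone list as a whole had 3 higher and 5 lower genes of 11, and its median of -0.14 became 0.14 with arrays shifted to the same median. BZIP61 led the bZIP factors, of which 11 of 21 were higher. Its signals were 127, 254 and 439.8 in the meristematic zone and 1656, 1761 and 2157 in the elongation zone. The iron-response factor bHLH115 rose from a median of 70.1 to 374, while the other 6 factors of that list did not pass.

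Of 24 auxin genes 6 were higher and 8 lower (25% and 33.3%), close to the shares over all genes, and 10 and 7 with arrays shifted to the same median. The Aux/IAA family, known for repressors of auxin response, held IAA33 (-2.41 ± 0.18) on the meristematic side and IAA18 (1.56 ± 0.18) on the elongation side. IAA33 had signals of 66.6, 104 and 205 in the meristematic zone and 1.45, 9.19 and 13.9 in the elongation zone. IAGLU, which conjugates auxin to glucose, fell by 1.09 and UGT74D1, a glucosyltransferase of the same kind, rose by 0.79. UGT76C2, which inactivates cytokinins with glucose, fell from a median of 109 to 4.06, and 7 of the 8 cytokinin genes had mean signals under 50 in both zones. Of 6 brassinosteroid genes 1 was higher and 3 lower, at a median of -0.14 that became 0.13 with the shift. BIM1, a partner of brassinosteroid transcription factors, had signals of 46.6, 83.1 and 126 in the meristematic zone and 902, 1130.2 and 1266 in the elongation zone (3.59 ± 0.11). The lower genes were EXO (-0.85 ± 0.18), known to promote growth, the receptor gene BRL1 (-0.39 ± 0.13) and AT4G31910 (synonym BAT1, -0.64 ± 0.20), each with overlapping arrays. In gibberellin signalling SPY (-1.15 ± 0.10) and SLY2 (-1.50 ± 0.14) were lower, the receptor GID1A fell by 0.54 and the receptor GID1B rose by 0.42.

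Of 16 CLE and RALF peptides 6 were higher and none was lower, and 9 had mean signals under 50 in both zones. With arrays shifted to the same median 12 were higher. RALFL33 had signals of 76.5, 167 and 175 in the meristematic zone and 797, 1359 and 1654 in the elongation zone, and RALFL27 rose from a median of 1.50 to 232. RALF peptides are ligands of FERONIA-type kinases, which were described with the wall. The PXY-like receptor kinases AT1G08590 (synonym PXL1) and AT4G28650 (synonym PXL2) rose by 3.92 and 2.87. They belong to a list of 10 genes of vascular development, of which LHW, a regulator of vascular cell division (-0.62 ± 0.12), and GUT2 were lower and the other 6 did not pass. After arrays were shifted to the same median, 5 of this list were higher and 1 lower. In calcium signalling 5 of 17 genes were higher and 1 lower, from CML42 (2.52 ± 0.12) to the glutamate receptor GLR3.6 (-0.33 ± 0.11). The 29.4% that were higher lay near the 24.2% over all genes, and 7 of the 17 had mean signals under 50 in both zones. With arrays shifted to the same median 11 were higher.

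The division between the zones was already present at 0 h and stayed. At 0, 1, 3 and 6 h the calls were 4039, 4264, 3989 and 4053 higher (17.8%, 18.7%, 17.5% and 17.8% of probe sets) and 5228, 5390, 5537 and 5704 lower (23%, 23.7%, 24.3% and 25.1%). Called at every one of the 4 times were 2906 probe sets higher and 4158 lower, of 22746. Of the 13259 probe sets called over all times, 95.5% had the same sign at each of the 4. These were called on the mean of the same 4 differences, so that share is largely set by the selection. NRPA2 changed by -2.29, -3.04, -3.04 and -2.77 at the 4 times, TUB1 by 3.91, 3.21, 3.24 and 3.55 and VHA-A3 by 1.53, 1.47, 1.15 and 1.73. An F test for a change of the zone difference over the times called 1 probe set of 22746 (0.0044%), and 1179 had an unadjusted p under 0.05. That probe set has no single gene in the annotation. Its zone difference was -2.96, 0.45, -1.62 and -2.11 at 0, 1, 3 and 6 h (adjusted p = 0.000462).

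The zone difference was also taken on H2O2 at 1, 3 and 6 h, from 12 other arrays, and set against that on control medium at these times. No probe set was called for the difference between media (0%), and 971 had an unadjusted p under 0.05. On H2O2 56.5% of probe sets were called between the zones, and of those called on control medium 98.2% had the same sign there. For the RNA and ribosome genes the median change was -1.20 on H2O2, for the vacuolar proton ATPase 1.34 and for the acetylation family 1.12. The gene with the smallest p for a difference between media among those annotated was not called (AT2G41810, adjusted p = 0.0685).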

How the data were processed

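The series holds 28 ATH1 arrays in 14 groups of 2. The deposited values are linear signal intensities per probe set, globally scaled by the authors (the mean without the highest and lowest 2% was equal on all arrays). MAS5 and GCRMA are named, per the submitters' processing notes, without roles or versions. No depth exists for arrays, and their number limits the precision.

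Here log2(signal + 16) was fitted with limma 3.58.1 (R 4.3.3) as 14 group means over all 28 arrays, with an intensity trend. When only the 16 control arrays were fitted, 5702 probe sets were called higher and 7184 lower. The zone contrast averaged the 4 control times. Benjamini-Hochberg adjustment covered 22746 probe sets, without 64 control probe sets, and the fit was tested on simulated data. The 2 replicates per group are labelled biological. GEO's platform annotation gave 13513 probe sets 1 gene, 503 several and 8730 none. Of these, 13436 matched a locus of RefSeq's TAIR10.1 table, and the probe set brightest over all 28 arrays stood for each of 13286 genes. Only 1535 had a name other than the locus, so each list holds the named part of its family.

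The members and lists were chosen with earlier results of these data known. Genes named in the text were taken, and not all printed, from the 30 highest and 30 lowest, up to 4 called members per direction of each list, the members of lists of at most 12, the genes nearest to a call over time or media, and the markers. Alternatives were other pseudocounts, normalizations, filters, sample sets, a replicate block and leaving out arrays. Sequences were not used here.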

Additional observations from a re-analysis of the deposited data

Results flagged for a closer look

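Within the 8 control arrays of a zone, 29 of 446 sets of values tested held 1 array whose gap to its nearest neighbour was over 0.526 of the whole range on the log2 scale. By chance about 5% of such sets would be picked out. They are given as signals, with no explanation.

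In the elongation zone 9 of the 29 fell on the first replicate of 0 h. It was the lowest array for AT3G28550 (146), IAA18 (33.1), SKU5 (2303), SWEET17 (150), TRM26 (180), TUB1 (2887), TUB6 (1929) and USP (446) and the highest for the cytochrome gene CYTC-2 (1942). TUB1 on this array lay below the median of the others (3813) and above every meristematic array. The second replicate of 0 h was the highest for the endoglucanase GH9B6 (10.6), for sks16 (130) and for AT1G50060 (269).

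The second replicates of 1 h held 12 more. In the elongation zone it was the lowest for AT1G08280 (80.8) and EIF4A-2 (1484) and the highest for AT2G26690 (894), ATG8E (451) and SP1L4 (342). ATG8E had a median of 36.9 on the other 7 elongation arrays. In the meristematic zone it was the lowest for EXPA15 (1080), SKU5 (1301), SLY2 (45.8) and LHW (350) and the highest for RALFL27 (7.54), SP1L3 (1241) and AT3G01190 (135).

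The remaining values came from other arrays. XTH20 was high at 3 h (37.4) and UGT76C2 at 6 h (9.24) in the elongation zone. In the meristematic zone EXPA18 (48.9) and BRL1 (26.3) were high at 6 h and TUB5 was low at 0 h (654).

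The zone difference of 1 probe set without a single annotated gene changed over the control times by limma's F test (adjusted p = 0.000462), with a positive value at 1 h and negative values at the other times.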

How the results depend on the processing

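Shifting all arrays to the same median gave 10595 probe sets higher in the elongation zone in place of 5910, and 65.6% of the calls higher in place of 44.6%. Quantile normalization gave 6557 higher and 6625 lower. Of 74 gene lists, the medians of 12 changed sign with the shift, which adds nearly the same amount to every median. Of 1746 values of 220 named genes under alternatives, 1720 kept their direction and their side of the threshold. GME and SEC15A, slightly lower, turned to 0.0753 and 0.0435 with arrays shifted to the same median. The cause was not tested.

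Leaving out 1 array at a time, the calls between zones ran from 12845 to 13265, 5631 to 5950 of them higher and 7166 to 7349 lower. The change over times gave 1 to 2 probe sets and the difference between media 0 to 1. The difference between media also gave 1 probe set with a pseudocount of 1, with a pseudocount of 64 and with probe sets of a mean signal under 50 left out, and 2 after quantile normalization or the shift to the same median. The difference of the actin ratio ran from -0.408 to -0.234, with p above and below the threshold. Without the 1 h control arrays numbered 2, an alternative chosen after seeing the data, 12857 probe sets were called.

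Same-numbered arrays of the zones deviated together with correlations from 0.0583 to 0.438, not all over 0.1. The main test did not take the numbers as pairs, although the zones were cut from the same root tips. A replicate block gave 6057 higher and 7480 lower, and a paired block by time 6127 and 7519, with 2 probe sets for the difference between media.

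Signals near 0 limit the lists with many dim genes. The annotation used gave 7 of 49 markers a probe set of their own.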

Other observations

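Enzyme families of specialised metabolism and detoxification did not move as one. Of 24 cytochromes P450 4 were higher and 6 lower, and 10 and 3 with arrays shifted to the same median. Of 22 beta-glucosidases 1 was higher and 3 lower, and 9 and 3 with that shift. Without the shift the shares were 16.7% and 25% for the cytochromes P450 and 4.5% and 13.6% for the beta-glucosidases. All lay below the 24.2% higher and 31.8% lower over all genes. In these families 19 and 17 genes had mean signals under 50 in both zones. Of 52 glucosyltransferases, which attach sugars to hormones and phenolics, 19 were higher in the elongation zone and 7 lower, and 33 and 5 with arrays shifted to the same median. UGT71C1 had signals of 81.0, 131 and 203 in the meristematic zone and 544, 799 and 965 in the elongation zone, and UGT76B1 rose from a median of 203 to 934. Of 14 glutathione transferases 7 were higher and 3 lower, with GSTU28 at 3.60 ± 0.19 and ATGSTF13 at -4.32 ± 0.18. Of 7 flavonoid genes 2 were higher and 2 lower (28.6% each), and 3 and 0 with the shift. CHIL, a partner of flavonoid enzymes, rose from a median of 337 to 2533, whereas DFR, a later enzyme, did not pass. Of 29 serine carboxypeptidase-like genes 8 were higher and 9 lower, close to the shares over all genes, and 17 and 7 with the shift. They ran from scpl40 (3.75 ± 0.15) to scpl28 (-2.27 ± 0.19). Members of these families resemble each other in sequence, so a probe set may also bind the RNA of a relative.

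Of 12 genes of dehydrins and other proteins known from dry or cold tissue 5 were higher in the elongation zone of these untreated roots and 1 lower, and 8 and 0 with the shift. LTI30, a dehydrin, had signals of 207, 333 and 568 in the meristematic zone and 536, 1074 and 2657 in the elongation zone, COR47 rose from a median of 943 to 2520.2 and AT2G46140 (synonym LEA27) from 641 to 2464. The small cysteine-rich protein LCR68 had signals of 78.8, 144 and 251 in the meristematic zone and 1768, 2992 and 4143 in the elongation zone. Genes for photosynthesis in plastids, a function of green tissue, were lower in 13 and higher in 3 of 27, and 18 had mean signals under 50 in both zones. With arrays shifted to the same median these counts were 7 lower and 6 higher. The brightest of those that fell was AT4G38100 (synonym CURT1D, -2.27 ± 0.11).

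Many of the widest differences carried no gene name, and the families of these genes were not determined here. In 57 probe sets all 8 elongation arrays were over 200 and all 8 meristematic arrays under 50, and the reverse held in 20. Of the 30 genes with the highest change 3 had a name other than the locus, UPB1, XTH21 and CSLA03, and of the 30 lowest also 3, sks16, ATGSTF13 and EXPA4. The highest change was that of AT3G01190, with signals of 10.2, 36.1 and 135 in the meristematic zone and 4121, 7719 and 10160.0 in the elongation zone (7.17 ± 0.33), and the lowest that of AT1G50060, with signals of 1341, 2479 and 3148 in the meristematic zone and 0.93, 12.8 and 269 in the elongation zone (-5.96 ± 0.36). Among the other unnamed genes, AT3G28550 had signals of 0.65, 1 and 1.67 in the meristematic zone and 146, 515 and 918 in the elongation zone and AT5G48360 of 511, 542 and 712 in the meristematic zone and 3.91, 29.3 and 49.2 in the elongation zone.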
